A study of Mus musculus with 12 samples.

Results

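The TGF-β pathway of tumor-infiltrating CD8+ T cells was examined through 10 genes chosen by name: the ligand Tgfb1, the receptors Tgfbr1 and Tgfbr2, the signal transducers Smad2, Smad3 and Smad4, the inhibitory Smad7, and the nuclear repressors Ski, Skil and Tgif1. All 10 were found once among the 52636 gene identifiers of the count table and all 10 passed the filter on low counts. The cells came from female A2AR eGFP reporter mice, C57BL/6 animals of 6 to 16 weeks carrying a bacterial artificial chromosome transgene in which regulatory sequences of Adora2a, the gene of the adenosine receptor A2AR, drive eGFP. Every mouse carried a subcutaneous AT-3 ova tumor, an ovalbumin-expressing mammary carcinoma line, of which 500000 cells had been injected. CD8+ T cells were sorted as GFP+ or GFP- on day 21 from non-treated mice or from mice given anti-PD-L1, an antibody against the ligand of the checkpoint receptor PD-1, on days 14 and 18. Each of the 4 groups (non-treated GFP+, non-treated GFP-, anti-PD-L1 GFP+, anti-PD-L1 GFP-) holds 3 libraries, coded KT13 to KT24, and each library pools the cells of 3 mice, so the spread given here is between pools and not between single animals.

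TGF-β1 is made as a latent complex and, once released, binds TGFBR2, which recruits and phosphorylates TGFBR1. The activated receptor phosphorylates SMAD2 and SMAD3, which join SMAD4 and enter the nucleus to regulate target genes, among them Smad7, whose product in turn blocks the receptor. SKI, SKIL (also called SnoN) and TGIF1 bind SMAD complexes and repress transcription. In CD8+ T cells the pathway is known for restraining the cytotoxic programme and for inducing CD103, the integrin chain encoded by Itgae that retains T cells in epithelial tissue.

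In the 2 libraries that stood apart, described below, the ligand was higher and its type II receptor lower than in every other library. The 250 bases before the transcription starts of these genes are shown for that reason (RefSeq, GRCm38.p6). Skil was also lower there than in every other library, but no window was available for it. The capitals mark the SMAD box CAGAC or its reverse complement GTCTG, the short motif that SMAD3 and SMAD4 can bind. Such a box occurs in 42.2% of all 32851 windows of this length, so its presence or absence in a window is a description only. The first window is chr7:25686752-25687001 on the plus strand and holds no box, and the second is chr9:116175364-116175613 on the minus strand and holds 1.
Tgfb1: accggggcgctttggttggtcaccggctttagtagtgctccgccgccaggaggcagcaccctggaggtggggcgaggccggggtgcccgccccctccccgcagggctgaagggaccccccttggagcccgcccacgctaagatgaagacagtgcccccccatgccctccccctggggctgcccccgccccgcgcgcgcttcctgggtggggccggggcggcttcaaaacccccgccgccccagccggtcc
Tgfbr2: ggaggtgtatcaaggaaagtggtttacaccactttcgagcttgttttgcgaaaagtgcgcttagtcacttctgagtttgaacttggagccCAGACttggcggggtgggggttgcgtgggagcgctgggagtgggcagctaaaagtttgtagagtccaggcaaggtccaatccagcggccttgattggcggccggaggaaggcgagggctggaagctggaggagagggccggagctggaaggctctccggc

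The libraries held 11292699 to 19023900 counted reads. Levels are given as CPM, that is, counts relative to the library's total after scaling by the trimmed mean of M values (TMM). The reads come from the 3′ ends of transcripts, and levels are compared between libraries for the same gene and not between genes. Adora2a followed the sort, with 60.2 to 111 CPM in the GFP+ libraries and 19.7 to 34.6 CPM in the GFP- libraries (averaged over both treatments, log2 fold change 1.52, SE 0.14, adjusted p = 0.000365). The CD8 T cell markers summed to between 3020 and 5090 CPM, while Cd4 reached at most 0.92 CPM. Macrophage and monocyte markers were detected at 67.3 to 228 CPM in sum. 2 GFP+ libraries stood apart across all genes: KT13 (non-treated) and KT21 (anti-PD-L1) had a median Spearman correlation with the other libraries of 0.941 and 0.935, against 0.967 to 0.977 for the other 10. Every comparison is therefore given over 12 libraries (14173 genes tested) and without KT13 and KT21 (14747 genes tested), the latter with 2 GFP+ libraries in each treatment. The labels give no batch.

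Tgfb1, the ligand, had similar levels in 10 of the 12 libraries and stood far higher in KT13 and KT21. In non-treated GFP+ cells its level was 167 CPM in KT13, 52.1 CPM in KT15 and 57.3 CPM in KT17, and in non-treated GFP- cells it was 59.9 CPM in KT14, 58.1 CPM in KT16 and 49.4 CPM in KT18. In anti-PD-L1 GFP+ cells the level was 50.6 CPM in KT19, 127 CPM in KT21 and 60.9 CPM in KT23, and in anti-PD-L1 GFP- cells 57.0 CPM in KT20, 65.6 CPM in KT22 and 43.4 CPM in KT24. The GFP+ and GFP- groups overlapped in both treatments. Averaged over both treatments, the log2 fold change of GFP+ against GFP- cells was 0.62 (95% confidence interval 0.0042 to 1.24, adjusted p = 0.606) over 12 libraries and -0.01 (-0.25 to 0.23, adjusted p = 0.991) without KT13 and KT21. The value over 12 libraries thus rested on these 2 libraries. It did pass the threshold when every gene with at least 1 count was kept in the fit (log2 fold change 0.62, adjusted p = 0.00662), which is the only setting in which any member was called. Macrophages and monocytes also make TGF-β1. The summed level of their 8 markers was 173 CPM in KT13, the lowest of the non-treated GFP+ libraries (173 to 228 CPM). It was 110 CPM in KT21, within the range of the anti-PD-L1 GFP+ libraries (74.9 to 139 CPM). The carcinoma cell markers summed to 32.0 CPM in KT13, the highest of the non-treated GFP+ libraries (23.6 to 32.0 CPM). Their sum was 17.4 CPM in KT21, within the range of the anti-PD-L1 GFP+ libraries (8.37 to 20.2 CPM). The part of macrophages, monocytes or carcinoma cells in the Tgfb1 levels was not tested. Differences in the number of expressing cells and in the RNA per cell cannot be told apart in these bulk samples.

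**Figure D1:**
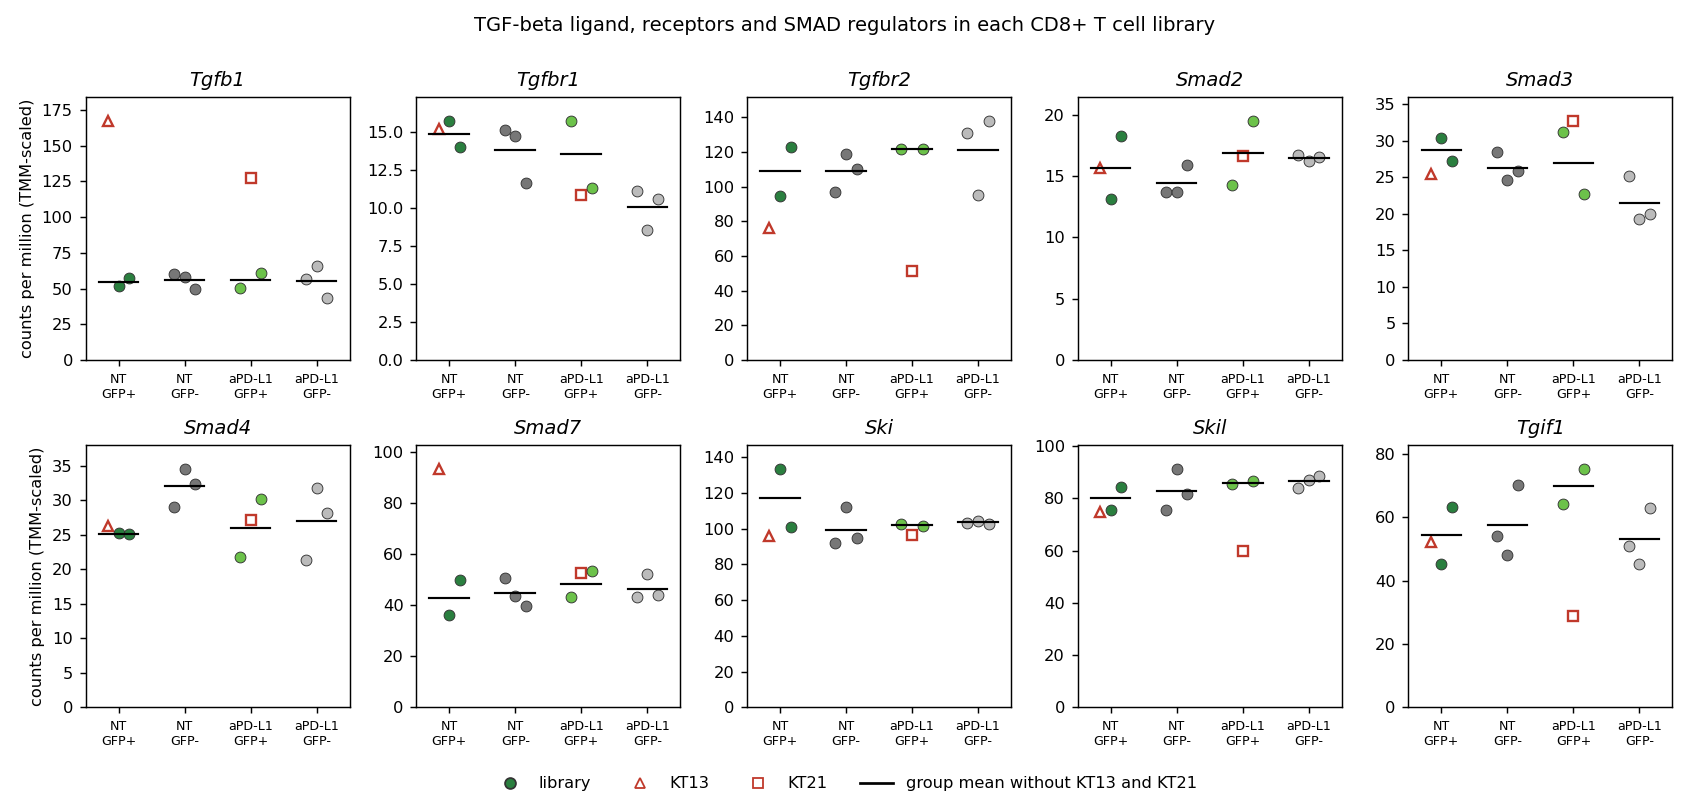
Level of each of the 10 members (vertical axis, TMM-scaled CPM, starting at 0) in each library of the 4 groups (NT, non-treated; aPD-L1, anti-PD-L1). Filled circles are libraries, the open triangle is KT13, the open square is KT21, and bars are group means without these 2 libraries. KT13 and KT21 lie above all others for Tgfb1 (167 and 127 CPM) and below all others for Tgfbr2 (76.2 and 51.3 CPM).

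Of the receptors, Tgfbr2 encodes the type II chain that binds the ligand. Its level was 76.2, 94.8 and 123 CPM in the non-treated GFP+ libraries KT13, KT15 and KT17, and 96.8, 119 and 110.5 CPM in the non-treated GFP- libraries KT14, KT16 and KT18. It was 122, 51.3 and 122 CPM in the anti-PD-L1 GFP+ libraries KT19, KT21 and KT23, and 131, 95.4 and 138 CPM in the anti-PD-L1 GFP- libraries KT20, KT22 and KT24. KT13 and KT21 were the lowest of all libraries, while the other 10 overlapped across the groups. The averaged log2 fold change of GFP+ against GFP- cells was -0.23 (-0.66 to 0.20, adjusted p = 0.806) over 12 libraries and 0.00 (-0.22 to 0.23, adjusted p = 0.998) without them.

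Tgfbr1 encodes the type I chain, the kinase that phosphorylates the receptor SMADs. Its level was 15.2, 15.7 and 14.0 CPM in the non-treated GFP+ libraries KT13, KT15 and KT17, and 15.2, 14.7 and 11.6 CPM in KT14, KT16 and KT18, the non-treated GFP- libraries. In the anti-PD-L1 groups it was 15.7, 10.8 and 11.3 CPM in KT19, KT21 and KT23 (GFP+) and 11.1, 8.55 and 10.6 CPM in KT20, KT22 and KT24 (GFP-). All 3 anti-PD-L1 GFP- libraries lay below the 3 non-treated GFP- libraries, while in GFP+ cells the treatment groups overlapped. The log2 fold change with treatment in GFP- cells was -0.46 (-0.93 to 0.020, adjusted p = 1.0) over 12 libraries and -0.45 (-0.91 to 0.0013, adjusted p = 0.694) without KT13 and KT21. Averaged over both GFP groups it was -0.35 (-0.69 to -0.015, adjusted p = 0.63) and -0.29 (-0.65 to 0.065, adjusted p = 0.571). The treatment difference in Tgfbr1 did not pass the test adjusted over all genes, and its interval reaches from little change to a fall of 0.93 on the log2 scale in GFP- cells.

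Smad7, the inhibitory SMAD that TGF-β signaling itself induces, had 93.6 CPM in KT13 and 36.3 to 53.5 CPM in the other 11 libraries, KT21 included with 52.6 CPM. The other non-treated GFP+ libraries, KT15 and KT17, had 36.3 and 49.8 CPM, and the non-treated GFP- libraries KT14, KT16 and KT18 had 50.6, 43.7 and 39.8 CPM. In anti-PD-L1 cells the GFP+ libraries KT19, KT21 and KT23 had 43.2, 52.6 and 53.5 CPM, and the GFP- libraries KT20, KT22 and KT24 had 43.2, 52.4 and 44.1 CPM. Smad7 was therefore high in a single library and the groups otherwise overlapped. Its averaged log2 fold change of GFP+ against GFP- cells was 0.26 (-0.15 to 0.66, adjusted p = 0.758) over 12 libraries, 0.02 without KT13 alone, and 0.00 (-0.25 to 0.25, adjusted p = 1.0) without KT13 and KT21.

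The receptor-activated SMADs and their common partner had coefficients of variation of 13.3% (Smad2), 15.8% (Smad3) and 16% (Smad4) over the 10 libraries other than KT13 and KT21, where the median was 13.4% over the 7062 genes at or above the level of the lowest member. Smad2 ranged from 13.1 to 19.5 CPM over the 12 libraries, and the 3 anti-PD-L1 GFP- libraries (16.5 ± 0.23 CPM, SD, n = 3) lay above the 3 non-treated GFP- libraries (14.4 ± 1.29 CPM, SD, n = 3), with a log2 fold change of 0.19 (-0.23 to 0.62, adjusted p = 1.0). Smad3 ranged from 19.3 to 32.7 CPM. After anti-PD-L1, GFP+ cells had 28.9 ± 5.42 CPM (SD, n = 3) and GFP- cells 21.5 ± 3.22 CPM (SD, n = 3), and their log2 fold change of 0.43 (0.021 to 0.83, adjusted p = 0.993) came to 0.33 (-0.068 to 0.73, adjusted p = 0.98) without KT13 and KT21. Smad4, the partner shared by all receptor SMADs, ranged from 21.3 to 34.6 CPM. The non-treated GFP+ libraries had 25.5 ± 0.62 CPM (SD, n = 3) and the non-treated GFP- libraries 32.0 ± 2.77 CPM (SD, n = 3), with no overlap between the 2 groups, and the log2 fold change was -0.33 (-0.73 to 0.076, adjusted p = 0.87) over 12 libraries and -0.35 (-0.75 to 0.059, adjusted p = 0.628) without KT13 and KT21. In anti-PD-L1 cells the corresponding Smad4 groups overlapped, at 26.4 ± 4.24 and 27.1 ± 5.28 CPM (SD, n = 3 each).

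Among the nuclear repressors, Skil and Ski had nearly equal coefficients of variation over 12 libraries (10.7% and 10.6%), and Skil had the lowest of all members without KT13 and KT21. Its level ranged from 75.4 to 91.4 CPM in the 10 libraries other than KT13 and KT21, a coefficient of variation of 6.24%, and 98.3% of the tested genes varied more over the same 10 libraries. That share counts genes of every level, with a median of 21.4%, against 13.4% for the 7062 genes named above. The level of Skil was at percentile 86.8 of the tested genes. Its share among genes of similar level was not computed. KT21 had the lowest level, with 59.8 CPM, and KT13 the next lowest, with 74.6 CPM. Ski ranged from 91.8 to 134 CPM over the 12 libraries, the highest being KT15, a non-treated GFP+ library. In anti-PD-L1 cells the GFP+ libraries (100.2 ± 3.17 CPM, SD, n = 3) lay below the GFP- libraries (103.5 ± 0.85 CPM, SD, n = 3) without overlap, but the log2 fold change was -0.05 (-0.38 to 0.29, adjusted p = 0.993). Tgif1 had its lowest level in KT21, with 28.7 CPM, against 45.3 to 75.5 CPM in the other 11 libraries. With KT13 and KT21 left out, the 2 anti-PD-L1 GFP+ libraries (64.2 and 75.5 CPM) lay above the 3 anti-PD-L1 GFP- libraries (51.0, 45.3 and 63.0 CPM), and the log2 fold change was 0.39 (0.019 to 0.77, adjusted p = 0.894). With KT21 included it was 0.08 (-0.53 to 0.69, adjusted p = 0.993).

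**Figure D2:**
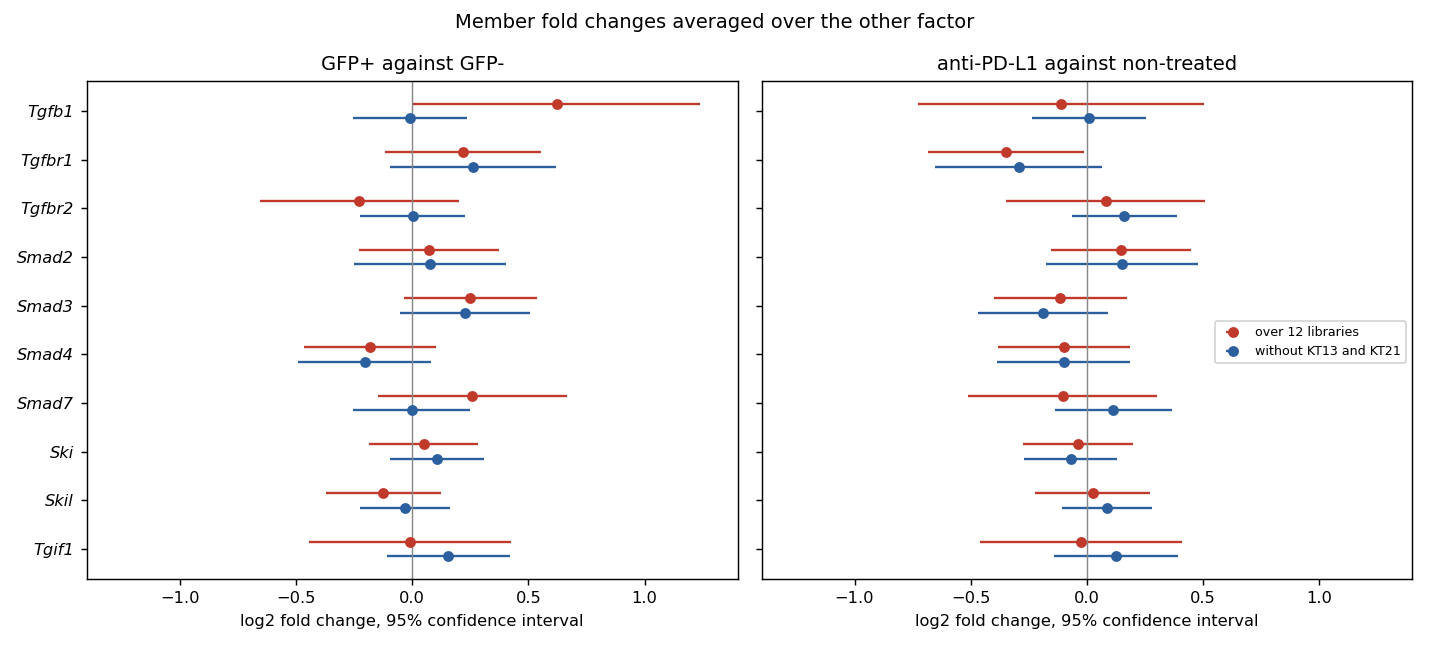
Log2 fold change (horizontal axis) of each member with its 95% confidence interval from edgeR's quasi-likelihood fit, for GFP+ against GFP- averaged over both treatments (left) and anti-PD-L1 against non-treated averaged over both GFP groups (right). Red points are the fit over 12 libraries and blue points the fit without KT13 and KT21. Tgfb1 in the left panel moves from 0.62 to -0.01 when these 2 libraries are left out.

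None of the 10 members passed the test in any of the 7 comparisons, over 12 libraries or without KT13 and KT21 (quasi-likelihood F test of edgeR, p adjusted by Benjamini-Hochberg for all genes tested, threshold 0.05). The smallest adjusted p of any member was 0.606 over 12 libraries and 0.571 without KT13 and KT21, and with DESeq2 it was 0.419 and 0.596. At an unadjusted p under 0.05, 1 member was found over 12 libraries in each of 3 comparisons: Smad3 for GFP in anti-PD-L1 cells, Tgfb1 for GFP averaged over treatments, and Tgfbr1 for treatment averaged over GFP groups. Of all genes tested, 4.08%, 8.18% and 7.67% had such a p in these comparisons. Without KT13 and KT21, 1 member was found in a single comparison, Tgif1 for GFP in anti-PD-L1 cells, where 5.34% of all genes had such a p. 1 of 10 members is close to these shares. Few genes of any kind were called. Of all genes tested over 12 libraries, those called were 0.00706% for GFP in non-treated cells, 0.0282% for GFP in anti-PD-L1 cells, 0.0141% for treatment in GFP+ cells, 0% for treatment in GFP- cells, 0.31% for GFP averaged, 0.395% for treatment averaged and 0% for the interaction between them. The corresponding shares without KT13 and KT21 were 0.339%, 0.17%, 0.563%, 0.373%, 1.08%, 1.36% and 0%. A count of 0 among 10 members is near this background.

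The intervals bound what the libraries can show. Without KT13 and KT21, the averaged GFP comparison gave intervals that together reached from -0.49 (Smad4) to 0.62 (Tgfbr1) on the log2 scale, so a 2-fold difference lay outside every one of them. Over 12 libraries the interval of Tgfb1 reached 1.24. The median log2 fold change of the 10 members was 0.06 over 12 libraries and 0.04 without KT13 and KT21 in this comparison, and -0.07 and 0.05 in the averaged treatment comparison, while the medians over all genes tested were 0.0038 and -0.0047 for GFP and -0.0055 and -0.00092 for treatment. For the interaction, the members ranged from -0.325 to 0.355 over 12 libraries and from -0.26 to 0.48 without KT13 and KT21, and every adjusted p was 1.0.

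Groups of libraries that did not overlap were about as frequent among the members as among all genes in the set of 12 libraries. Over 12 libraries, 1 member did not overlap for GFP in non-treated cells (Smad4, lower in GFP+; 12.8% of all genes tested), 1 for GFP in anti-PD-L1 cells (Ski, lower in GFP+; 10.6%), none for treatment in GFP+ cells (10.3%) and 2 for treatment in GFP- cells (Smad2 higher and Tgfbr1 lower with treatment; 12.3%). Without KT13 and KT21, where smaller groups separate more easily, these were Smad4 (25.2% of all genes), then Tgfbr1 and Tgif1 higher and Ski lower in GFP+ (22%), then Skil and Tgif1 higher with treatment in GFP+ cells (39.1%), and again Smad2 and Tgfbr1 (12.2%).

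KT13 and KT21 both stood far from their groups for the ligand and the type II receptor, while Smad7 did so mainly in KT13 and Tgif1 mainly in KT21. Relative to the mean of the other 2 libraries of its own group, on the log2(CPM + 0.5) scale, Tgfb1 was higher by 1.61 in KT13 and by 1.19 in KT21, above 98.2% and 96.3% of the genes tested. Tgfbr2 differed by -0.50 and -1.24, Smad7 by 1.13 and 0.13, and Tgif1 by -0.04 and -1.26, in KT13 and KT21 respectively. Smad2 and Smad4 differed by at most 0.08 in either library. Of all genes tested, 10.4% were higher in both KT13 and KT21 than in every other library, Tgfb1 being the only such member, and 13.8% were lower in both than in every other library, which held for Tgfbr2 and Skil. The differences of the 2 libraries had a Spearman correlation of 0.444 over 14173 genes, taken within these libraries over genes that do not vary independently. The summed NK cell markers were 93.8 CPM in KT13, the highest of the non-treated GFP+ libraries (80.6 to 93.8 CPM). They were 88.4 CPM in KT21, the highest of the anti-PD-L1 GFP+ libraries (74.6 to 88.4 CPM). In GFP- libraries these sums were 54.1 to 62.0 CPM (non-treated) and 47.0 to 47.7 CPM (anti-PD-L1). The part of the NK cell markers in the differences of KT13 and KT21 was not tested.

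**Figure D3:**
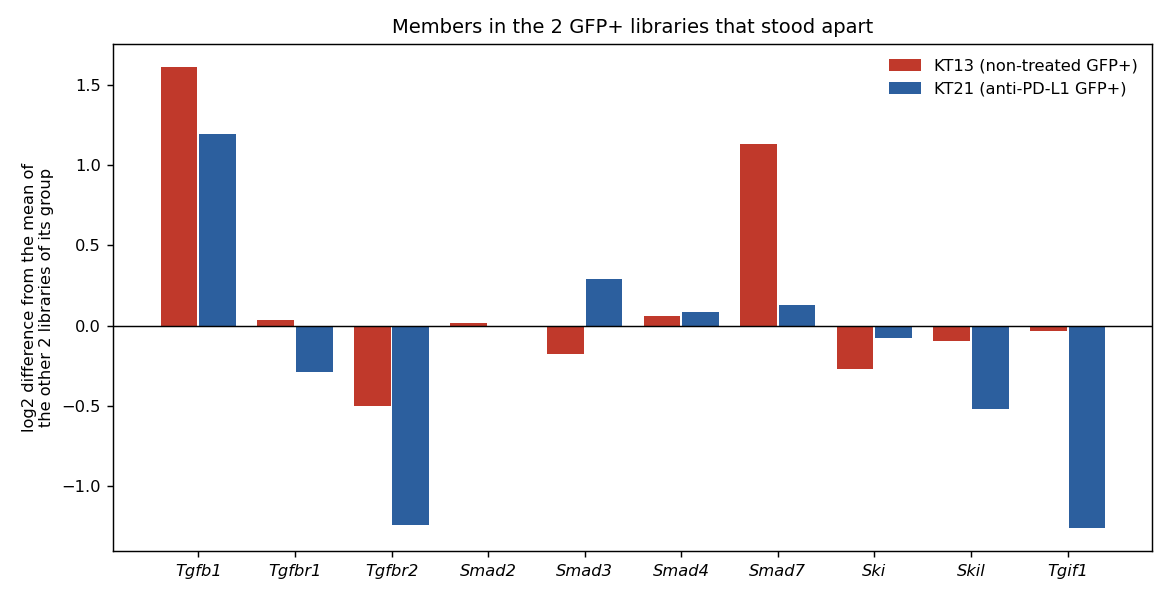
Difference of each member in KT13 (non-treated GFP+, red) and KT21 (anti-PD-L1 GFP+, blue) from the mean of the other 2 libraries of the same group, on the log2(CPM + 0.5) scale (vertical axis). Bars start at 0. Both bars are above 1 for Tgfb1 and below 0 for Tgfbr2, Ski, Skil and Tgif1, while Smad7 differs by 1.13 in KT13 and 0.13 in KT21, and Tgif1 by -0.04 and -1.26.

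The genes whose log2(CPM + 0.5) followed that of a member most closely over the libraries were sought for Tgfb1, Tgfbr2 and Smad7, as a description. Over 12 libraries, Mark2 was the closest to Tgfb1 (Pearson r = 0.979) and had its highest level, 207 CPM, in KT13 and 187 CPM in KT21. Gm43841 (0.976) and Gm14769 (0.974) came next and were likewise highest in KT13. Ppp1r2, a phosphatase inhibitor, was the closest to Tgfbr2 (r = 0.984), followed by Wdr92 (0.968) and Gm11604 (0.964), and all 3 had their lowest level in KT21. For Smad7 the closest were Gm12778 (0.949), Rpl35a (0.939) and Gm16200 (0.937), all highest in KT13. Over the 10 libraries that remain without KT13 and KT21, the closest to Tgfb1 were 9530068E07Rik (0.926), Nol9 (0.917) and Arhgef4 (0.907). The closest to Tgfbr2 were then Ap1g1 (0.943), Ppp1r2 (0.927) and Gm26870 (0.921), and the closest to Smad7 were E130215H24Rik (0.945), Uqcr10 (0.929) and Crtc1 (0.914). Ppp1r2 was the only gene to appear for the same member in both sets of libraries.

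Beyond the 10 members, other parts of the pathway were read from lists of genes with a known role. Of 13 other ligands and genes of TGF-β storage and activation, 10 could be tested, and none was called in any comparison in either set of libraries. The values that follow are averaged differences on the log2 scale, first over 12 libraries and then without KT13 and KT21. Nrros, which tethers latent TGF-β on myeloid cells, had a GFP difference of -0.32 (SE 0.13, adjusted p = 0.562) and then -0.27 (SE 0.12, adjusted p = 0.435). Itgav, the integrin chain that takes part in its release, had a treatment difference of 0.40 (SE 0.17, adjusted p = 0.57) and then 0.45 (SE 0.15, adjusted p = 0.155). Itgb8, the partner chain of Itgav in activation, had a GFP difference of 1.09 (SE 0.83, adjusted p = 0.768) and then 1.1 (SE 0.92, adjusted p = 0.752). Ltbp1, a latent TGF-β binding protein, had a treatment difference of -2.00 (SE 0.80, adjusted p = 0.546) and then -1.54 (SE 0.99, adjusted p = 0.62). Itgb8 and Ltbp1 lay near the floor, so their differences rest on few reads. Over 12 libraries the group means were 0.39 to 1.25 CPM for Itgb8 and 0.29 to 2.3 CPM for Ltbp1. The summed fibroblast markers were 4.35 to 64.3 CPM in non-treated and 0.214 to 12.2 CPM in anti-PD-L1 libraries, and their part in the Ltbp1 values was not tested.

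Of 4 other SMADs, 2 could be tested and neither was called. The GFP difference of Smad1 was 0.49 (SE 0.32, adjusted p = 0.727) over 12 libraries and 0.23 (SE 0.32, adjusted p = 0.879) without KT13 and KT21, and that of Smad5 turned from 0.15 (SE 0.19, adjusted p = 0.869) to -0.06 (SE 0.17, adjusted p = 0.956). Among 16 modulators of receptors and SMADs, 15 were tested over 12 libraries and 16 without KT13 and KT21, with none called. Trim33, a ubiquitin ligase acting on SMAD4, had an averaged treatment difference of -0.31 (adjusted p = 0.383) and then -0.29 (adjusted p = 0.262). Fkbp1a, which holds the type I receptor inactive, had one of 0.32 (adjusted p = 0.51) and then 0.18 (adjusted p = 0.424). For Ldlrad4 it was -0.28 (adjusted p = 0.597) and then -0.30 (adjusted p = 0.344), and for the pseudoreceptor Bambi -0.80 (adjusted p = 0.7) and then -0.71 (adjusted p = 0.453). Of 6 nuclear partners, 5 were tested and none was called. Their averaged GFP differences were 0.00 and then -0.01 for the coactivator Crebbp, -0.13 and -0.18 for its relative Ep300, 0.13 and 0.21 for the corepressor Sin3a, and -0.17 and 0.02 for Sp1, whose direction turned.

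The co-receptor Tgfbr3, also called betaglycan, which presents TGF-β to the type II receptor, was lower in GFP+ cells in both treatments. It was 6.77, 7.66 and 7.70 CPM in the non-treated GFP+ libraries KT13, KT15 and KT17, and 10.8, 12.03 and 16.1 CPM in the non-treated GFP- libraries KT14, KT16 and KT18. In anti-PD-L1 cells it was 7.47, 4.63 and 6.67 CPM in KT19, KT21 and KT23 (GFP+) and 13.7, 13.9 and 15.2 CPM in KT20, KT22 and KT24 (GFP-). All 6 GFP+ libraries lay below all 6 GFP- libraries, but the share of all genes that separate in this way was not computed. Averaged over both treatments, Tgfbr3 differed by -1.0 on the log2 scale (SE 0.18, adjusted p = 0.0267) over 12 libraries and -0.88 (SE 0.19, adjusted p = 0.0141) without KT13 and KT21. In the separate treatments it was -0.81 (adjusted p = 0.566) and -1.18 (adjusted p = 0.209) over 12 libraries, which did not pass the test, and the interaction was -0.38 (SE 0.35, adjusted p = 1.0). Tgfbr3 was the only gene called among the 7 other receptors of the family tested over 12 libraries, and among the 8 tested without KT13 and KT21. Of all genes tested, 0.31% and 1.08% were called for averaged GFP in these 2 sets. The averaged call held in 3 of 12 fits that left out 1 library, those without KT14, KT19 or KT21, with adjusted p between 0.0336 and 0.11 over the 12 fits and a log2 fold change between -1.07 and -0.91. From the 10 libraries, the call held in 7 of 10 such fits and was lost without KT15 (adjusted p = 0.0579), KT17 (0.0534) or KT23 (0.0726). The summed NK cell markers (Ncr1, Klrb1c and Eomes, the last of which activated CD8+ T cells also express) were 74.6 to 93.8 CPM in GFP+ and 47.0 to 62.0 CPM in GFP- libraries. Klrb1c was called higher in GFP+ cells (95% confidence interval of the averaged log2 fold change 0.92 to 1.6, adjusted p = 0.00406), and the part of these markers in the Tgfbr3 difference was not tested.

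**Figure D4:**
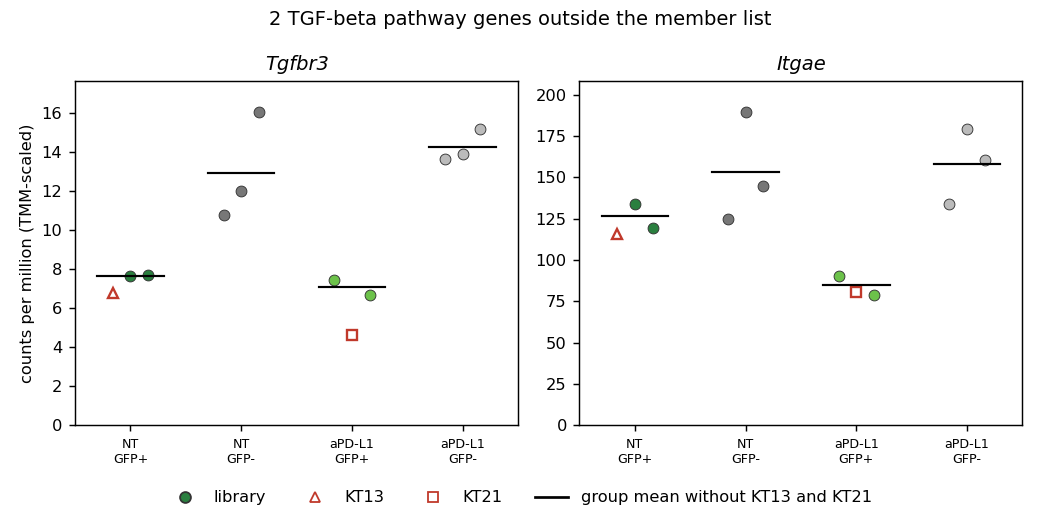
Level of the co-receptor gene Tgfbr3 (left) and of Itgae (right) in each library (vertical axis, TMM-scaled CPM, starting at 0) of the 4 groups (NT, non-treated; aPD-L1, anti-PD-L1). Filled circles are libraries, the open triangle is KT13, the open square is KT21 and bars are group means without these 2 libraries. Tgfbr3 ranges from 4.63 to 7.70 CPM in the GFP+ libraries and from 10.8 to 16.1 CPM in the GFP- libraries.

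Of 9 genes that TGF-β is known to raise in T cells, 7 were tested over 12 libraries with none called, and 8 without KT13 and KT21, where Itgae was called lower in GFP+ cells and no other gene was. Its level was 116, 134 and 119 CPM in the non-treated GFP+ libraries KT13, KT15 and KT17, and 125, 189 and 145 CPM in the non-treated GFP- libraries KT14, KT16 and KT18. With anti-PD-L1 it was 90.2, 80.5 and 79.0 CPM in KT19, KT21 and KT23 (GFP+) and 134, 179 and 161 CPM in KT20, KT22 and KT24 (GFP-). The GFP groups overlapped in non-treated cells and were apart in anti-PD-L1 cells. With anti-PD-L1, the GFP difference of Itgae was -0.92 (SE 0.18, adjusted p = 0.121) over 12 libraries and -0.90 (SE 0.16, adjusted p = 0.00969) without KT13 and KT21. In non-treated cells it was -0.31 (adjusted p = 0.863) and -0.27 (adjusted p = 0.63). The difference between these effects, tested as the interaction, was -0.63 (SE 0.22, adjusted p = 1.0) without KT13 and KT21, so Itgae was not shown to respond to GFP status differently in the 2 treatments. The averaged GFP difference was -0.62 (adjusted p = 0.0538) over 12 libraries and -0.59 (adjusted p = 0.00628) without KT13 and KT21. In the latter set, 1.08% of all genes tested were called for averaged GFP and 0.17% for GFP in anti-PD-L1 cells. Over 12 libraries, none of the fits that left out 1 library called Itgae. Their adjusted p was 0.0559 to 0.217 for the averaged difference and 0.11 to 0.779 in anti-PD-L1 cells. From the 10 libraries, leaving out 1 more kept the averaged call in 10 of 10 fits and the call in anti-PD-L1 cells in 7 of 10, the latter being lost without KT19 (adjusted p = 0.0517), KT22 (0.0935) or KT23 (0.137). The regulatory T cell marker Foxp3, itself on the list, had 6.44 to 24.9 CPM, and Cd4 had at most 0.92 CPM. After the antibody, both together came to 6.89 to 15.3 CPM where GFP was present and 15.9 to 24.9 CPM where it was absent. Foxp3 made up most of this sum, so the sum does not measure CD4+ T cells apart from Foxp3. The part of regulatory T cells in the Itgae difference was not tested.

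Of 12 genes that TGF-β is known to lower in T cells, all were tested, and those called moved in both directions. With GFP averaged over treatments, Gzma, the gene of the protease granzyme A, was lower in GFP+ cells over 12 libraries (-1.88, SE 0.25, adjusted p = 0.00511) and without KT13 and KT21 (-1.89, SE 0.22, adjusted p = 1.88e-05). Without these libraries the death ligand gene Fasl was also lower (-0.44, SE 0.10, adjusted p = 0.034) and Myc, a driver of growth and proliferation, was higher (0.87, SE 0.19, adjusted p = 0.0189). Leaving out 1 more library kept the call of Fasl in 2 of 10 fits and that of Myc in 7 of 10. The NK cell marker sums given beside Tgfbr3 differed by GFP as well. Cd8a was 830 ± 30.8 CPM in GFP+ and 1148 ± 52.3 CPM in GFP- libraries of non-treated mice (SD, n = 3 each), and 1257 ± 98.1 and 1327 ± 45.1 CPM with anti-PD-L1. The sum of the 6 CD8 T cell markers, Cd8a among them, overlapped by GFP. It was 3020 to 3730 CPM in GFP+ and 3660 to 3890 CPM in GFP- libraries of non-treated mice, and 3730 to 5090 and 4200 to 4400 CPM with anti-PD-L1. The part of these markers in the GFP differences of Gzma, Fasl and Myc was not tested. With treatment averaged over GFP groups, the perforin gene Prf1 (1.47, SE 0.15, adjusted p = 0.0021) and Gzma (1.45, SE 0.25, adjusted p = 0.02) were higher over 12 libraries, and Klf2, a factor of T cell quiescence and egress, was lower (-0.96, SE 0.17, adjusted p = 0.0239). The call of Prf1 held in 12 of 12 fits without 1 library, that of Gzma in 6 and that of Klf2 in 5. All 3 were also called without KT13 and KT21 in the same direction, and there Gzmb (0.90, SE 0.09, adjusted p = 1.82e-06) and the interferon-γ gene Ifng (0.47, SE 0.09, adjusted p = 0.00312) were higher as well. Of all genes tested, 0.395% over 12 libraries and 1.36% without KT13 and KT21 were called for averaged treatment. For averaged GFP these shares were 0.31% and 1.08%. The list was chosen with earlier results of these data known, so its share of called genes is a description only. The summed macrophage and monocyte markers were 123 to 228 CPM in non-treated and 67.3 to 139 CPM in anti-PD-L1 libraries, the fibroblast markers fell in the ranges given beside Ltbp1, and the part of both in the treatment differences was not tested.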

How the data were processed

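The 12 libraries were made with the QuantSeq 3′ mRNA kit and read as 75 base single-end reads. The authors deposited raw counts per Ensembl gene. Per the methods, Cutadapt 2.1 trimmed the reads, HISAT2 aligned them to mm10 and featureCounts (Rsubread 2.10.5) counted them, while the submitters' processing notes give cutadapt 1.7 and Subread 1.6.4. The annotation release, strand setting and treatment of reads with several matches are not given in the sources used here. Symbols came from GENCODE M21 (52403 of 52636 identifiers matched). The members do not overlap another annotated exon.

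Counts were filtered with filterByExpr, scaled by TMM and tested with edgeR 4.0.16 (R 4.3.3) quasi-likelihood F tests in 1 fit of the 4 groups, with Benjamini-Hochberg adjustment over all genes. Calls needed an adjusted p under 0.05. Standard errors were derived from F, and 95% intervals from the fit's total degrees of freedom. CPM used the TMM factors of all 12 libraries. Alternatives were DESeq2 1.42.0, its size factors in edgeR, a filter of at least 1 count in any library, and leaving out each library. On simulated counts for GFP in non-treated cells (13574 genes), the fit over 12 libraries recovered 33% of genes changed 2-fold and 100% of those changed 4-fold, and without KT13 and KT21 (13800 genes) 43% and 100%. It made 10 false calls in the first set and 9 in the second. The simulation gave every gene the same dispersion and held no library that stood apart, so these rates need not hold for the members. Libraries ranged from 11292699 to 19023900 counts, and the members had 120 to 2345 counts per library, a counting error of 9.13% to 2.07%. Reads carry no molecular identifiers, so this covers counting only.

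The members, the gene lists and the second set of libraries were chosen with earlier results of these data known. All members were named, with genes of the lists that were called, otherwise up to 4 a list by smallest unadjusted p, and the 3 genes most like Tgfb1, Tgfbr2 and Smad7.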

Additional observations from a re-analysis of the deposited data

How the results depend on the processing

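No paired analysis was made because the labels state no pairing of GFP+ and GFP- libraries. Whether GFP+ and GFP- libraries came from the same pools of mice is not given, and the tests treated all libraries as independent. Of the 10 members, none was called under DESeq2, DESeq2's size factors or any fit without 1 library, and 1 (Tgfb1, averaged GFP comparison over 12 libraries) was called when every gene with at least 1 count was kept. That filter also changes how the spread is pooled, and the cause of the call was not tested. Counts of all genes called moved most. In the order GFP in non-treated cells, GFP in anti-PD-L1 cells, treatment in GFP+ cells, treatment in GFP- cells, GFP averaged and treatment averaged, edgeR over 12 libraries called 1, 4, 2, 0, 44 and 56, DESeq2 53, 38, 89, 33, 158 and 180, and edgeR with at least 1 count 78, 49, 123, 60, 204 and 223, with 10 for the interaction. Without KT13 and KT21 these were 50, 25, 83, 55, 159 and 201 with edgeR, 129, 61, 135, 91 and 256 for the first 5 with DESeq2, and 188, 85, 214, 164, 309 and 399 with at least 1 count, with 4 for the interaction. Fits without 1 library gave, over 12 libraries, 0 to 6, 0 to 7, 0 to 34, 0 to 28, 13 to 50, 27 to 90 and, for the interaction, 0 genes, and without KT13 and KT21 17 to 72, 6 to 37, 36 to 148, 37 to 75, 106 to 170, 101 to 296 and 0 to 1.

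Leaving out 1 of 12 libraries turned the direction of log2 fold changes that had not passed the test. For Tgfb1 the range was -0.0289 to 1.01 for GFP in non-treated cells and -0.365 to 0.27 for averaged treatment. For Smad7 it was -0.0551 to 0.68 and -0.23 to 0.14 in the same comparisons. Ski ranged from -0.0326 to 0.0993 (averaged GFP), -0.0182 to 0.23 (GFP in non-treated cells) and -0.0828 to 0.0431 (averaged treatment). Tgif1 ranged from -0.13 to 0.15 (averaged GFP), -0.17 to 0.39 (GFP in anti-PD-L1 cells) and -0.16 to 0.13 (averaged treatment). For averaged treatment, Skil ranged from -0.0142 to 0.10 and Tgfbr2 from -0.0097 to 0.24. Starting without KT13 and KT21, averaged GFP differences ranged from -0.001 to 0.21 for Ski, -0.0675 to 0.0145 for Skil, -0.0489 to 0.19 for Smad2, -0.12 to 0.11 for Smad7, -0.0792 to 0.0605 for Tgfb1 and -0.0925 to 0.0931 for Tgfbr2. Averaged treatment differences ranged from -0.17 to 0.0382 for Ski, -0.23 to 0.0066 for Smad4 and -0.0612 to 0.0834 for Tgfb1. GFP differences in non-treated cells ranged from -0.29 to 0.16 for Smad7 and -0.10 to 0.0412 for Tgfb1, and that of Tgfb1 in anti-PD-L1 cells from -0.14 to 0.15. With 3 pools a group, 2 without KT13 or KT21, 33% and 43% of 2-fold differences were recovered on simulated data for GFP in non-treated cells. Every simulated gene had the same dispersion and no simulated library stood apart, so these rates need not hold for the members.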
